A study of Mus musculus with 6 samples.

Results

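The 10 genes described here encode the granule proteases of mast cells (Cpa3, Cma1, Mcpt4, Tpsb2 and Tpsab1), the enzyme that makes their histamine (Hdc) and receptors on their surface (Kit, Ms4a2, Fcer1a and Mrgprb1). They were named as a list of mast cell genes and matched by symbol to the 55487 gene IDs of the count table, in which each symbol was found once. RNA from the dissected rib cage of 6 mouse embryos at 16.5 dpc was sequenced (RNA-Seq). The 3 controls (embryos E420, E434 and E435) are labelled wild type, and the 3 mutants (E423, E433 and E440) carry Col2-cre;Foxc1-/-;Foxc2-/-. By the study's methods, floxed Foxc1 and Foxc2 were deleted by crossing males with Col2-cre and 1 deleted copy of each gene to females homozygous for both floxed genes, on a mixed C57B6 and Black Swiss background, and controls were littermates, so that controls from this cross hold floxed alleles too. The Col2-cre driver acts in cartilage, perichondrium and the ossification center. Whether mast cells carried the deletion was not measured.

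Mast cells are blood-derived cells of connective tissue and skin that reach the tissue as progenitors and fill with granules as they mature. Their granules hold carboxypeptidase, chymases and tryptases bound to heparin, together with histamine, and empty when IgE on the high-affinity IgE receptor meets its antigen. Their survival depends on the receptor tyrosine kinase Kit and its ligand, and the GATA factors Gata1 and Gata2 and the factor Mitf are known to act in the lineage. In RNA of a whole tissue, fewer cells of a type and less RNA per cell cannot be told apart.

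The libraries held 37853988 to 47794799 counts, so that 1 count was worth 0.0209 to 0.0264 CPM, the counts scaled to a common library total. The CPM values below were further scaled by edgeR's TMM method, and libraries are always listed as E420, E434, E435 for controls and E423, E433, E440 for mutants. Foxc1 had 23.1 to 36.9 CPM in controls and 3.51 to 9.60 CPM in mutants, and Foxc2 had 1.98 to 4.83 CPM and 0.649 to 1.14 CPM. The libraries differed in tissue makeup within both groups. A list of 11 cartilage genes summed to 25604 CPM in control E434 and 9247 CPM in mutant E433, against 629 to 1952 CPM in the other 4 libraries. A list of 10 keratinocyte genes summed to 18.2 CPM in E434, 3209 CPM in E433, 5442 and 6308 CPM for E420 and E435, and 27529 and 27665 CPM for E423 and E440. Hepatocyte genes summed to 628 CPM in E433 and to between 30.5 and 50.5 CPM elsewhere. Each result below is therefore given by embryo.

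Mast cell transcripts were present in every library, and 5 of the 10 genes, Cpa3, Cma1, Kit, Ms4a2 and Hdc, were higher in all 3 mutants than in all 3 controls. None was lower in all 3. Over all 26596 genes tested, 6.81% were separated upward and 8.21% downward. The median log2 fold change of the 10 was 1.43, against 0.01 over all genes tested. None of the 10 passed an adjusted p-value of 0.1 and a log2 fold change of 1 in the quasi-likelihood test of edgeR, which called 0.0338% of all genes higher and 0.0301% lower. The deleted genes Foxc1 and Foxc2 did not pass it either, with log2 fold changes of -2.34 and -1.99 (adjusted p = 0.236 and 0.239 from edgeR). DESeq2's Wald test gave them adjusted p-values of 9.63e-07 and 0.000207. EdgeR's adjusted p-values for the 10 members ran from 0.389 to 0.733. Of these members, 4 of the 10 had an unadjusted p under 0.05, all with higher mutants, as did 5.90% of all genes. DESeq2's Wald test called 1 of the 10, Mrgprb1, higher past both limits (adjusted p = 0.0382), and 0 lower, against 1.33% and 0.459% of all genes. All 10 genes had at least 10 counts over the 6 libraries and were tested, Fcer1a with exactly 10.

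**Figure D1:**
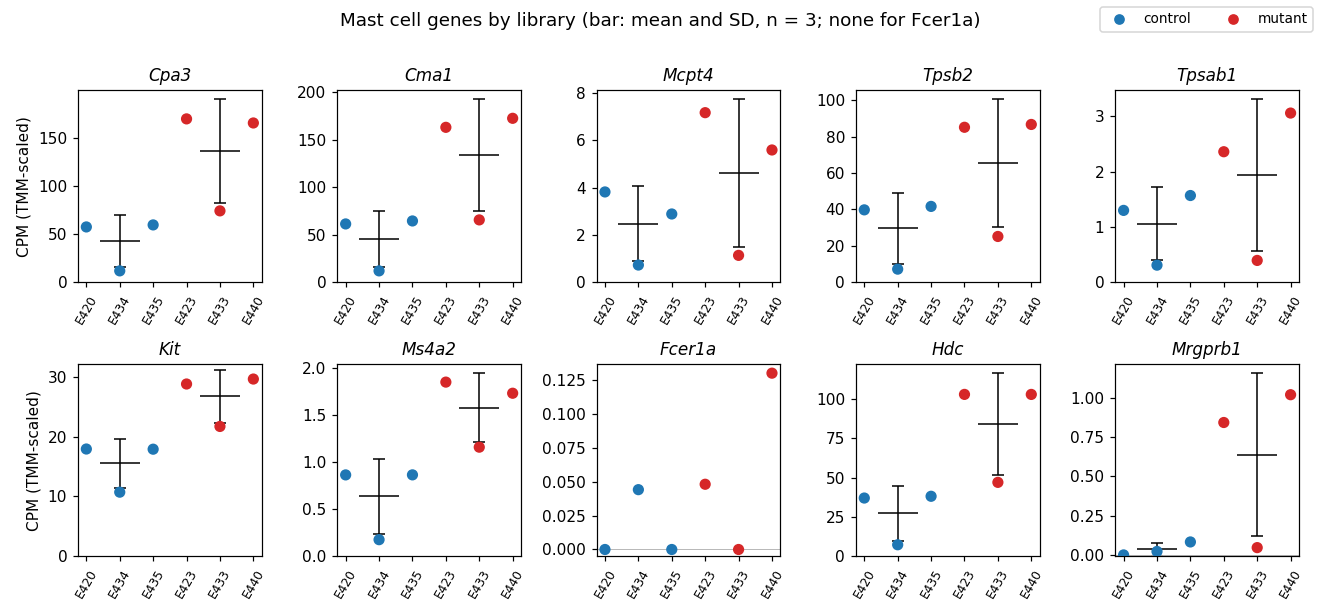
TMM-scaled CPM of the 10 mast cell genes (vertical axes, 1 panel a gene, each with its own scale) in the 3 control (blue) and 3 mutant (red) libraries, with the mean and SD of each group as bars except for Fcer1a. Control E434 is the lowest library in 8 panels, and mutants E423 and E440 are the highest 2 libraries in all 10 panels.

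Cpa3 encodes the granule carboxypeptidase A3 (ENSMUSG00000001865.2, chr3:20215620-20242181 in GRCm38). Its level by embryo was 57.4, 11.8 and 59.5 CPM among controls against 169, 74.1 and 165 CPM among mutants. The groups did not overlap, but the lowest mutant was closer to the higher controls than to the other mutants. The control mean was 42.9 ± 26.9 CPM (SD, n = 3) and the mutant mean 136 ± 53.9 CPM (SD, n = 3), which the edgeR fit put at a log2 difference of 1.67 with a standard error of 0.625 (adjusted p = 0.44).

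The chymase Cma1 (ENSMUSG00000022225.7, chr14:55941451-55944675), a serine protease, measured 61.3, 12 and 64.5 CPM among controls against 163, 65.6 and 172 CPM among mutants. Its groups were barely apart, at control E435 and mutant E433, and its log2 fold change by edgeR was 1.54, with a standard error of 0.659 (adjusted p = 0.48). Hdc (ENSMUSG00000027360.5, chr2:126593667-126619299), the histidine decarboxylase, measured 37.1, 7.32 and 38.2 CPM among controls against 103, 47.0 and 103 CPM among mutants. Every mutant was above every control, and the edgeR log2 fold change came to 1.62 with a standard error of 0.628 (adjusted p = 0.451).

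Upstream sequence is shown for these 3 genes, whose levels kept nearly constant proportions, and for the chymase gene Mcpt4, whose share varied most among the more abundant proteases. The runs are the 250 bases before the RefSeq start (GRCm38.p6), all on the minus strand and written 5′ to 3′ along the gene. They lie at chr3:20242182-20242431 for Cpa3, chr14:55944676-55944925 for Cma1, chr2:126618679-126618928 for Hdc and chr14:56062311-56062560 for Mcpt4. Capitals mark the GATA-type motifs AGATAA and TGATAA, searched on both strands (TTATCT and TTATCA on the other).
Cpa3: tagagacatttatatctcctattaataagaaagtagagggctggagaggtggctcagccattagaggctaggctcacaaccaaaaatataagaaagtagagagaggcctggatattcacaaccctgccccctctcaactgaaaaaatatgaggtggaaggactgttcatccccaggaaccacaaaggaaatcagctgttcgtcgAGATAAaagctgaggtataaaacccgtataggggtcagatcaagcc
Cma1: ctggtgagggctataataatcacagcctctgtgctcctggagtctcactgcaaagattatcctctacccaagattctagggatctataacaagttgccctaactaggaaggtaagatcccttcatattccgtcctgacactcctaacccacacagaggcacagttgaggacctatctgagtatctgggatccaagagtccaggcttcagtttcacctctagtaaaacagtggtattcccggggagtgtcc
Hdc: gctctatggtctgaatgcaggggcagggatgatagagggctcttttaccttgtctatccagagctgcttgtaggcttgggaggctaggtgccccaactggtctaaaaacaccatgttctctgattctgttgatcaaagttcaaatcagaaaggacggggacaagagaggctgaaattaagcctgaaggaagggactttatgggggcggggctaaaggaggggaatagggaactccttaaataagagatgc
Mcpt4: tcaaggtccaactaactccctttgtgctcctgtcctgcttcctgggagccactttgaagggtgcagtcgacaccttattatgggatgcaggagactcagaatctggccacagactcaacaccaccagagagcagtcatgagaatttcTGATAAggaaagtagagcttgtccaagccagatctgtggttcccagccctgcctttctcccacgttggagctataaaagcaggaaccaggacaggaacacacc

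RefSeq promoters were matched for 8 of the 10 genes, and 4 of these hold AGATAA or TGATAA, as do 16.6% of 32851 promoters of the same length. The motif starts 46 bases before the start in Cpa3, 103 bases in Mcpt4 and 92 bases in Fcer1a, and Ms4a2 has it at 224, 37 and 11 bases. It is not in the windows of Cma1, Hdc, Kit and Mrgprb1, which says only that these letters are not there. A match is a description of the sequence and not a binding site.

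The other proteases had mutant E433 within the control range. Tpsb2 (ENSMUSG00000033825.10, chr17:25366305-25369098), a tryptase that forms active tetramers on heparin, measured 39.8, 7.21 and 41.7 CPM among controls against 85.2, 25.2 and 86.7 CPM among mutants. Mutants E423 and E440 were above all controls and E433 was below controls E420 and E435. Its edgeR log2 fold change came to 1.15 with a standard error of 0.721 (adjusted p = 0.602).

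Mcpt4 (ENSMUSG00000061068.7, chr14:56059629-56062313), a chymase of connective tissue mast cells, measured 3.82, 0.728 and 2.89 CPM among controls against 7.17, 1.14 and 5.59 CPM among mutants. For Tpsab1 (ENSMUSG00000024173.11, chr17:25343245-25345562), the second tryptase, the levels were 1.30, 0.309 and 1.57 CPM and 2.36, 0.394 and 3.06 CPM. In both genes E433 was below E420 and E435 and above E434. Log2 fold changes were 0.90 for Mcpt4 (standard error 0.780) and 0.87 for Tpsab1 (standard error 0.811), each near its standard error. Leaving out single libraries moved them between 0.45 and 1.37 for Mcpt4 and between 0.38 and 1.36 for Tpsab1, with the lowest values without mutant E423 and mutant E440 respectively and the highest without mutant E433. Without control E434 they were 0.47 and 0.43, and that of Tpsb2 was 0.69. Without E420 that of Mcpt4 was 1.36.

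These counts hold uniquely aligned reads. Of the 42-base stretches of each transcript, the read length, 0 of 1248 in Tpsb2 and 0 of 1887 in Tpsab1 occur in a transcript of another gene, so reads of this length tell the tryptases apart from each other. The share was 7.44% for Cma1, all of it with Gm48934, and 7.40% for Mcpt4, with Cma2, Mcpt9 and Mcpt1. None of the 10 genes overlaps an exon of another gene on either strand in the annotation of the count table.

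The receptor tyrosine kinase Kit (ENSMUSG00000005672.12, chr5:75574916-75656722), which melanocytes and other cells express too, measured 17.9, 10.7 and 17.9 CPM among controls against 28.8, 21.7 and 29.6 CPM among mutants. All mutants were above all controls, with group means of 15.5 ± 4.16 CPM and 26.7 ± 4.36 CPM (SD, n = 3 each). Kit had the smallest log2 fold change of the 10 genes, 0.78, and the smallest standard error, 0.232 (adjusted p = 0.389 from edgeR). With DESeq2's Wald test its adjusted p was 0.0332, and its fold change was under the limit. Without mutant E433 its adjusted p in edgeR was 0.083.

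Ms4a2, Fcer1a and the list gene Fcer1g encode the beta, alpha and gamma chains of the high-affinity IgE receptor, of which gamma also serves other receptors of macrophages. Ms4a2 (ENSMUSG00000024680.12, chr19:11615523-11623719) had 34, 8 and 42 counts among controls against 77, 50 and 80 among mutants, or 0.865, 0.176 and 0.866 CPM against 1.85, 1.16 and 1.73 CPM. The mutants lay above the controls, and the edgeR log2 fold change, 1.31 with a standard error of 0.549 (adjusted p = 0.473), became 0.87 without control E434. Fcer1a (ENSMUSG00000005339.10, chr1:173221284-173227214), the chain that binds IgE, had 0, 2 and 0 counts in the controls and 2, 0 and 6 in the mutants. A count of 0 allows up to 0.0793 CPM in the shallowest library (3 counts, counting error only), so no difference was detectable at this depth. Fcer1g had 11.4 to 12.7 CPM in controls and 11.9 to 12.5 CPM in mutants, a log2 fold change of -0.01. The 3 chains of 1 receptor thus had different RNA levels, with the alpha chain near 0 where the beta chain had up to 80 counts. Their changes between groups cannot be compared, since Fcer1a had too few counts and Fcer1g also serves macrophage receptors.

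Mrgprb1 (ENSMUSG00000070547.4, chr7:48444113-48456342) belongs to the Mas-related receptors, a family of which some members let mast cells respond to peptides without IgE. It had 0, 1 and 4 counts among controls against 35, 2 and 47 among mutants, so 2 of the 3 mutants were high and E433 was within the control range. Its fitted log2 fold change was 4.01 (standard error 1.25, adjusted p = 0.40 from edgeR) and rests on a handful of control counts. Without mutant E433 edgeR called Mrgprb1 higher past both limits (adjusted p = 0.0266), the only member so called, as it did 2.84% of all genes, with 1.37% lower. All 10 members were then higher in both remaining mutants than in every control, Fcer1a by scaling alone since E423 and E434 had 2 counts each, as were 24.3% of all genes, with 23% lower. Mrgprb2, the receptor for basic secretagogues, had 0, 2 and 4 counts and 47, 10 and 52 counts. Mrgprb13 had 0 counts in each control and 12, 2 and 7 in the mutants, and Mrgprb8 had 0 counts in each control and 8, 2 and 2. Flg, a gene of the late epidermis, was likewise at 546 and 481 CPM in E423 and E440 and at most 0.116 CPM in the other 4 libraries. The part of skin RNA in these counts was not tested.

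**Figure D2:**
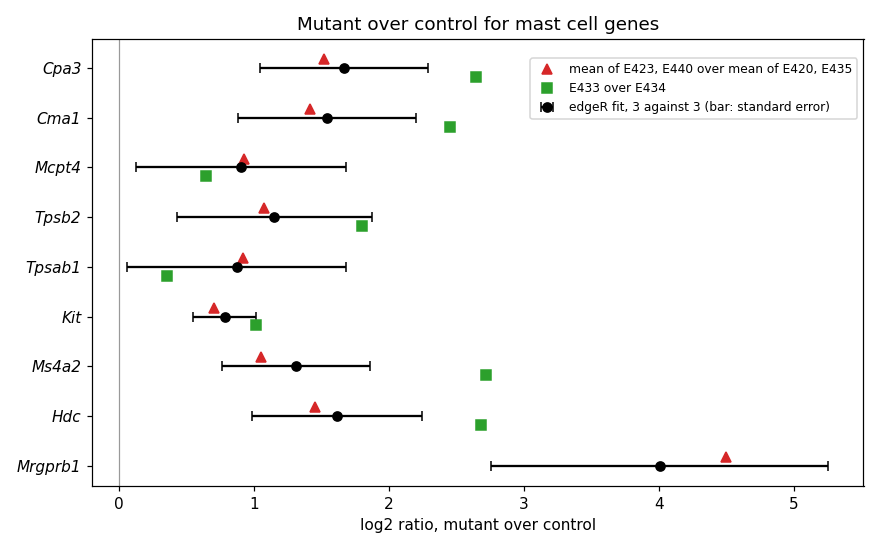
Log2 ratio of mutant to control (horizontal axis) for 9 genes, without Fcer1a: black points are the edgeR fit over 3 against 3 libraries with its standard error, red triangles the mean of E423 and E440 over that of E420 and E435, and green squares E433 over E434, left out for Mrgprb1 with its 2 and 1 counts. All points are above 0, and E433 over E434 is largest in Ms4a2, Hdc, Cpa3 and Cma1 and smallest in Tpsab1 and Mcpt4.

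For 8 members, all but Fcer1a and Mrgprb1 with their few counts, mutants were also higher when the libraries rich in cartilage RNA, E434 and E433, were read apart from the other 4. Fcer1a had 0 counts in E433 and 2 in E434. These sets follow the libraries' cartilage RNA and are not groups of the study, and other tissue RNA was not even within them. Keratinocyte genes summed to 27529 and 27665 CPM in E423 and E440 against 5442 and 6308 CPM in E420 and E435. In E433 and E434 they summed to 3209 and 18.2 CPM. Adipocyte, melanocyte and skeletal muscle sums were also higher in E423 and E440 than in E420 and E435. The part of this in the ratios was not tested. Among the other 4, the mean of E423 and E440 was 2.86 times that of E420 and E435 for Cpa3, 2.74 times for Hdc, 2.67 times for Cma1, 2.11 times for Tpsb2, 2.07 times for Ms4a2, 1.90 times for Mcpt4, 1.89 times for Tpsab1 and 1.63 times for Kit. Between E433 and E434, with 1 library each and no test, Ms4a2 was 6.57 times higher in the mutant, Hdc 6.42 times, Cpa3 6.26 times, Cma1 5.48 times and Tpsb2 3.49 times. The ratio was 2.03 for Kit, 1.56 for Mcpt4 and 1.28 for Tpsab1.

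E433 was the lowest mutant for every member, and E434 the lowest control for all but Fcer1a and Mrgprb1. Leaving both out thus also removed spread within the groups. With all libraries edgeR called none of the 10, with adjusted p-values from 0.389 to 0.733. With E434 and E433 left out, edgeR called 6 of the 10 higher past both limits: Cpa3, Cma1, Tpsb2, Ms4a2, Hdc and Mrgprb1, with adjusted p-values from 9.04e-16 to 0.00265. In that comparison of 2 against 2 it called 5.66% of all genes higher and 2.59% lower. These libraries also differed by group in keratinocyte, melanocyte, adipocyte and muscle genes, whose part was not tested. The 9 members tested, all but Fcer1a, had an unadjusted p under 0.05 and mutants above controls, as did 20.3% and 31.2% of all genes, with 31.5% separated downward. Cpa3, Cma1 and Hdc had log2 fold changes of 1.52, 1.42 and 1.45 there. The median over the members was then 1.08, and 0.87 without E434 alone.

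Levels of different genes were compared in TPM from RSEM, the share of all transcripts after adjusting for transcript length. Cma1 had the highest TPM of the 10 in all 6 libraries, with 67.2 ± 43.1 TPM in controls and 189 ± 74.4 TPM in mutants (SD, n = 3 each). Cpa3 had 41.4 ± 25.7 and 126 ± 44.2 TPM, and Tpsb2 40.7 ± 26.4 and 85.9 ± 43.0 TPM. The SDs of these neighbours overlapped in controls, but they hold the spread between libraries that the genes share. Within each control Cma1 was above Cpa3, at 91.4, 17.5 and 92.9 TPM against 55.5, 11.8 and 56.9 TPM. Tpsb2 was above Cpa3 in E435 alone. Hdc was in the next place in every library, with 16.3 ± 10.5 and 50.1 ± 16.8 TPM. Kit had 5.35 ± 2.16 and 7.78 ± 1.40 TPM, and Mcpt4 3.62 ± 2.32 and 6.24 ± 4.01 TPM, which overlapped. Tpsab1 had 0.887 ± 0.546 and 1.75 ± 1.11 TPM, and Ms4a2 0.547 ± 0.272 and 1.30 ± 0.295 TPM, whose spreads overlapped. Mrgprb1 and Fcer1a were below 1 TPM in every library.

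For 7 members the counts were also set against Cpa3 of the same library, a reading chosen after the values were seen. Hdc counts were 64.6%, 61.9% and 64.2% of Cpa3 counts among controls against 60.8%, 63.5% and 62.3% among mutants. The highest was 1.06 times the lowest, while Cpa3 itself ranged from 11.8 to 169 CPM. Cma1 counts were 107%, 101% and 108% of Cpa3 counts in the controls and 96.1%, 88.6% and 104% in the mutants. Of 14625 genes with at least 600 counts in all and a count in every library, Hdc had the steadiest log2 ratio to Cpa3 (SD 0.0334 over 6 libraries) and Cma1 the second (SD 0.11). Next came Col7a1 (SD 0.23), Apoc1 (0.253), Slc22a4 (0.259) and Spag1 (0.308), and Tpsb2 was at rank 14 (SD 0.39).

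**Figure D3:**
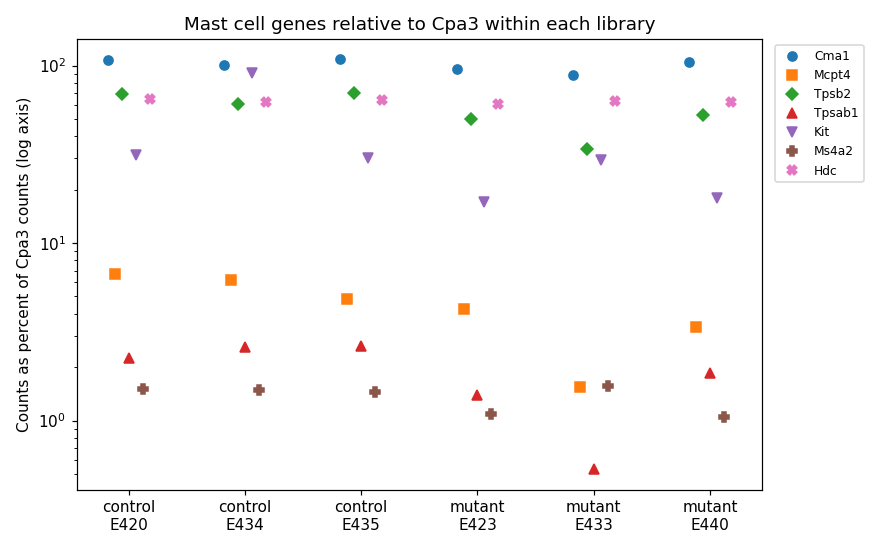
Counts of 7 mast cell genes as a percent of the Cpa3 counts of the same library (vertical axis, log scale) in 3 control and 3 mutant libraries (horizontal axis), 1 marker a gene. Hdc stays between 60.8% and 64.6% in all 6 libraries, while Mcpt4 and Tpsab1 are lowest in mutant E433, at 1.54% and 0.533%.

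The tryptases and Mcpt4 took a smaller share against Cpa3 in the mutants. Tpsb2 counts were 69.4%, 61.0% and 70.1% of Cpa3 counts in the controls and 50.3%, 34.0% and 52.5% in the mutants. Mcpt4 counts were 6.65%, 6.16% and 4.85% and then 4.23%, 1.54% and 3.38%. Tpsab1 counts were 2.26%, 2.61% and 2.63% and then 1.39%, 0.533% and 1.85%. In each of these genes all mutants were below all controls and E433 was lowest. The log2 ratio was lower in mutants by 0.58 for Tpsb2, 1.06 for Mcpt4 and 1.17 for Tpsab1, and an exact permutation test gave p = 0.1 for each, 2-sided, the smallest that 3 against 3 allows (0.175 after adjustment over 7 ratios). Without mutant E433 the log2 ratio was -0.38 for Tpsb2, -0.63 for Mcpt4 and -0.64 for Tpsab1. A gene whose level stays flat is lower against Cpa3 as well: 69.7% of 23263 genes with a count in every library were separated in this direction and 0.0559% in the other, so the count of members that were lower (4 of 7, with Kit) is no result about them. The 95% exact binomial intervals, which cover counting error only, were 1.13% to 2.03% for Mcpt4 in E433 and 2.98% to 3.83% in E440, the next lowest, and did not overlap.

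Ms4a2 counts were 1.51%, 1.49% and 1.46% of Cpa3 counts in the controls and 1.09%, 1.57% and 1.05% in the mutants, overlapping between groups (exact permutation p = 0.4). Kit counts were 31.3% and 30.1% of Cpa3 counts in E420 and E435 and 90.7% in E434, the library with the fewest mast cell transcripts. Among mutants they were 17%, 29.3% and 17.9%. E434 and E433 thus had the highest Kit share of each group, and the log2 ratio of Kit went from -1.08 to -0.56 without E434.

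Other genes of the mast cell program, from 4 lists of 55 genes, are listed by role. Of these, 52 were tested, 0 passed both limits in edgeR (adjusted p from 0.156 to 0.993), and 14 had an unadjusted p under 0.05 with higher mutants and 6 with lower mutants, against 5.90% and 4.7% of all genes. In 15 of the 52 (28.8%) all mutants were above all controls, against 6.81% of all genes, and in 7 (13.5%) below, against 8.21%. The median log2 fold change was 0.27. DESeq2's Wald test called 6 higher past both limits, Srgn, Ptgs1, Mrgprb2, Cd200r3, Adora3 and Gata1, and 0 lower, against 1.33% and 0.459% of all genes.

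Among granule and mediator genes, Srgn, whose product serglycin carries the heparin that binds the proteases, measured 12.4, 5.6 and 11.7 CPM among controls against 22.1, 16.7 and 22.5 CPM among mutants, with a log2 fold change of 1.04. Ptgs1 (cyclooxygenase 1) had 18.8, 12.9 and 18.5 CPM and then 41.8, 18.8 and 40.6 CPM, with E433 at the level of the controls. The prostaglandin D2 synthase Hpgds had a log2 fold change of 0.73 and the monoamine carrier Slc18a2 one of 0.42, neither past the limits. Ndst2, a heparin-sulfating enzyme that many cells express, had 29.3 to 35.1 CPM in controls and 33.8 to 37.0 CPM in mutants. The mucosal proteases Mcpt1 and Mcpt2 were at most 0.509 CPM in every library.

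Of the receptors, Cd200r3 measured 0.789, 0.265 and 1.24 CPM among controls against 2.72, 1.79 and 2.82 CPM among mutants, and the adenosine receptor Adora3 had 0.763, 0.132 and 0.618 CPM and then 2.16, 0.998 and 1.95 CPM. Il1rl1, the receptor for IL-33, had a log2 fold change of 0.93 with E433 within the control range. Csf2rb, the shared chain of the IL-3 receptor, had 7.86 to 8.16 CPM in controls and 10.9 to 12.3 CPM in mutants. The signalling genes of that list, which other leukocytes share, had log2 fold changes of both signs with none past the limits: 0.77 for Lat2, 0.08 for Inpp5d, -0.10 for Btk, -0.19 for Lat, -0.20 for Syk, -0.22 for Lyn and -0.77 for Plcg2. Mutants and controls were separated upward for Lat2 and downward for Syk and Plcg2.

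The transcription factor Gata2 measured 9.85, 4.50 and 9.19 CPM among controls against 15.7, 12.1 and 14.5 CPM among mutants, with no overlap. Its edgeR log2 fold change came to 0.85 (adjusted p = 0.428). Gata1, also a factor of red cells, had 0.353 to 0.907 CPM in controls and 1.03 to 2.16 CPM in mutants. It was highest in E433, the library with hepatocyte RNA, whose part in this was not tested. Mitf had a log2 fold change of 0.28. Tal1 measured 6.11, 5.36 and 5.85 CPM among controls against 6.30, 9.63 and 6.35 CPM among mutants, and was also highest in E433. Of the 9 factors listed, 3 (Gata1, Gata2 and Tal1) were higher in all mutants. Another 2, Spi1 (-0.62) and Bhlhe40 (-0.24), were lower in all, against 6.81% and 8.21% of all genes. Of the growth factors, Kitl, the ligand of Kit, measured 92.7, 76.0 and 88.9 CPM among controls against 107, 121 and 103 CPM among mutants. Its log2 fold change was 0.36, smaller than that of Kit. Il33 had 12.8 to 13.9 CPM in controls and 7.56 to 8.91 CPM in mutants, a log2 fold change of -0.73 (adjusted p = 0.156 from edgeR), the lowest adjusted p of the 4 lists. Tgfb1 (-0.49) and Cxcl12 (-0.67) were also lower in all mutants. Of the 8 growth factor genes tested, 1 was thus higher in all mutants and 3 lower. Il3 and Il9 had 0 counts in every library.

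The 8 genes of the leukocyte list summed to 179 to 182 CPM in controls and 139 to 163 CPM in mutants, with 0 of them higher in all mutants and 2 lower, Laptm5 and Lcp1, against 6.81% and 8.21% of all genes. Ptprc (CD45) had 8.40 to 8.99 CPM in controls and 6.0 to 9.79 CPM in mutants. The macrophage list of 9 genes summed to 261 to 272 CPM in controls and 227 to 250 CPM in mutants, but its genes differed. Mrc1 was higher in all mutants, Csf1r and Cd68 were lower in all, and Cd163 had a log2 fold change of 0.75 with E433 within the control range (adjusted p = 0.421 from edgeR). Basophils, which also make Hdc and the IgE receptor, were represented by 6 genes with a median log2 fold change of 0.21. Their proteases Mcpt8 (0.132 to 0.650 CPM) and Prss34 (1.04 to 4.12 CPM) had log2 fold changes of 0.23 and -0.67, with overlapping groups. Cd200r3 (1.67), Il6ra (0.77) and Il3ra (0.20) were higher in all mutants and Itga2 (-0.37) lower. The summed level of the mast cell genes was 219, 50.3 and 227 CPM among controls against 562, 236 and 569 CPM among mutants.

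**Figure D4:**
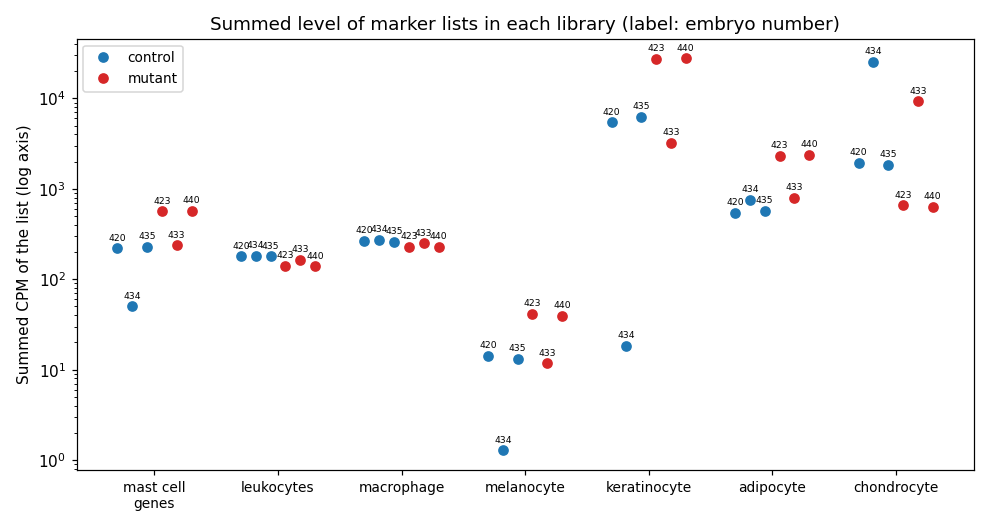
Summed TMM-scaled CPM (vertical axis, log scale) of the 10 mast cell genes and of marker lists of 6 other cell types in each library, labelled by embryo number, controls in blue and mutants in red. The leukocyte and macrophage sums span a narrower range and are lower in every mutant than in every control. Mast cell, melanocyte and keratinocyte genes are all lowest in E434 and highest in E423 and E440.

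Markers of skin cells moved with the mast cell genes in part. The 8 melanocyte genes summed to 14.1, 1.28 and 13.3 CPM among controls against 41.7, 11.8 and 39.5 CPM among mutants, and Dct, an enzyme of melanin synthesis, was at 0 counts in E434. Krt5, a keratin of basal keratinocytes, measured 375, 0.640 and 391 CPM among controls against 900, 193 and 896 CPM among mutants. In mutant E433, Krt5 was below E420 and E435 while Cpa3 was above them. Flg, 1 of 10 keratinocyte genes, and Tyrp1 and Mlana, 2 of 7 melanocyte genes tested, were also above all controls in every mutant. For these genes the separation at E433 rests on few counts. Flg had 5 counts in E433 against 4 in E420, Mlana 22 against 20 in E435, and Tyrp1 8 against 2 in E420. In these 2 lists 0 genes were lower in all mutants. Over all genes the shares were 6.81% higher and 8.21% lower. In control E434, Krt5 was close to 0 and Cpa3 was 11.8 CPM. The 8 adipocyte genes summed to 546 to 752 CPM in controls and 2325, 793 and 2385 CPM in the mutants, mostly from Car3. Of the 8, 6 were higher in all mutants and 0 lower, against 6.81% and 8.21% of all genes. Adipoq measured 0.458, 0.0882 and 0.371 CPM among controls against 50.3, 7.19 and 53.2 CPM among mutants. DESeq2's Wald test called 7 of the 8 higher past both limits and 0 lower, against 1.33% and 0.459% of all genes. The 8 skeletal muscle genes summed to 14376, 23875 and 14642 CPM among controls against 33128, 18588 and 32284 CPM among mutants, so they were high in E423 and E440 as the mast cell genes were, but not low in E434. The 9 dermal fibroblast genes summed to 21939, 27674 and 20885 CPM against 18750, 22372 and 18245 CPM, without this pattern. That sum was mostly Col1a1 and Col3a1, and its genes differed. Twist2 (7.28, 3.42 and 7.03 CPM against 14.4, 12.9 and 13.2 CPM) and Dpt (220, 169 and 221 CPM against 279, 298 and 285 CPM) were higher in all mutants and lowest in E434. Lox and Col1a1 were lower in all mutants. The part of skin, fat, muscle or cartilage RNA in the differences between libraries was not tested.

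The genes outside the lists whose profile over the 6 libraries was nearest to the median profile of the 10 members, among 16412 genes of at least 1 CPM, were Spag1, Fhdc1, Slc22a4, 9930012K11Rik and Gm14328. Their root mean square differences from it were 0.0425, 0.111, 0.132, 0.154 and 0.171 on the log2 scale. The member closest to that profile was Cma1, at 0.234, and the farthest were Mrgprb1 at 1.08 and Fcer1a at 1.06. Spag1 measured 6.79, 1.83 and 7.09 CPM among controls against 16.8, 6.06 and 17.6 CPM among mutants.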

How the data were processed

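By the submitters' processing notes, alignment to GRCm38 used HISAT2 2.1.0, and the authors deposited raw counts per gene over GENCODE exons from featureCounts 1.6.0. These ignore strand, take both ends as separate reads and drop reads with several alignments. A second set that the authors deposited, by STAR 2.7.6 and RSEM 1.2.31, holds expected counts and TPM per gene, in which shared fragments are divided between genes. Tables of the authors' own DESeq2 comparisons (fold changes, p-values and 12 columns of per-sample values) were not used here.

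Genes with at least 10 counts over 6 libraries entered a quasi-likelihood fit in edgeR 4.0.16 (R 4.3.3) after TMM scaling, with Benjamini-Hochberg adjustment of p-values. The limits were an adjusted p of 0.1 and a log2 fold change of 1. Of 55487 gene IDs, 55141 had a symbol. The members, the other lists (16 lists, 153 genes) and the tests were chosen with earlier results of these data known. Named genes are the members, list genes, Foxc1, Foxc2 and Col2a1, and the 5 nearest profiles by root mean square difference of log2 CPM (prior count 2). Col7a1, Apoc1 and the ratios to Cpa3 were chosen after values were seen. Alternatives were DESeq2 1.42.0 (Wald test) or its size factors, robust fitting, other filters and limits, RSEM counts rounded to whole numbers, library totals, and leaving out libraries. The steps were tested on simulated data. Nothing in the labels says more of how embryos relate than that they are separate, so p-values measure the spread between these samples.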

Additional observations from a re-analysis of the deposited data

How the results depend on the processing

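No member changed direction under any alternative that gave it a value. Fcer1a could not be tested with filterByExpr, with RSEM counts, without E434 (alone or with E433), without E423 or without E440, and Mrgprb1 could not with filterByExpr. The number of members past both limits was 0 with edgeR and 1 with DESeq2's Wald test, and 6 without E434 and E433. Leaving out 1 library gave 0 to 1, the 1 being without mutant E433. The number separated upward was 5 with all libraries, 9 without E434 and E433, and 5 to 10 with 1 library left out, the 10 (without E433) holding Fcer1a by scaling alone. The median log2 fold change was 1.24 to 1.44 with all libraries and 0.87 to 1.71 with 1 left out, lowest without control E434 and highest without mutant E433. The cause was not tested. Of the ratios to Cpa3, that of Hdc fell by 0.03 on the log2 scale with all libraries and by 0.06 without E434 and E433, and the others kept their sign. Without mutant E433 the log2 ratio was -0.63 for Mcpt4, -0.64 for Tpsab1, -0.38 for Tpsb2 and -0.47 for Ms4a2, and without control E434 it was -0.56 for Kit, against -1.06, -1.17, -0.58, -0.29 and -1.08 with all libraries. No paired analysis was possible because the embryo numbers are not shared between groups and the sources used here do not give the litter of each embryo. Depth limits Fcer1a, Mrgprb1 and the other Mas-related receptors.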
